A study of Mus musculus with 20 samples.

Results

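Voltage-gated sodium and calcium channel subunits were taken as every gene whose symbol names a sodium channel pore or beta subunit (Scn with a number and the letter a or b) or a calcium channel pore, alpha2delta, beta or gamma subunit (Cacna1, Cacna2d, Cacnb and Cacng). The rule used names only and found 39 of the 37561 genes shared by all tables: 9 sodium pore, 4 sodium auxiliary, 10 calcium pore and 16 calcium auxiliary subunits. Scn2a1, a neuronal sodium channel gene whose symbol ends in a digit, falls outside the rule. All 39 members had reads in at least 1 table, so 0 were without reads. The filter on low values, which asked for a typical normalized count of 4 or more on the log2 scale, kept 30 members and left 9 below it: Cacna1f, Cacna1s, Cacna2d4, Cacng1, Cacng3, Cacng6, Scn4a, Scn10a and Scn11a. These 9 are given by their reads, apart from the main tests.

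A sodium channel is built from 1 large pore protein, which opens on depolarization and carries the rising phase of the action potential, and from small beta subunits that bind it and shift its gating and its placement. A calcium channel pore lets calcium in on depolarization and so ties electrical activity to transmitter release, to gene expression and, in muscle, to contraction. Its alpha2delta and beta subunits carry the pore to the membrane and tune it, while most gamma subunits are better known as partners of AMPA-type glutamate receptors.

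Mouse D3 embryonic stem cells (ESD3, strain 129s2/SvPas), kept on mouse embryo fibroblast feeders, had been infected with a retrovirus that expressed a short hairpin RNA; the hairpin of the control line targets luciferase and that of the knockdown line targets HPRT. Both lines were grown as spherical neural masses and taken through a differentiation toward dopaminergic neurons, and RNA-seq libraries were made on each of days 0 to 4 and then on days 6, 8, 10, 12 and 14. The 20 libraries were 10 per line, 1 per line and day, each from cultures whose RNA had been pooled, and each line exists once, so the hairpin and the line cannot be told apart. Errors are therefore standard deviations over days, and successive days of 1 line are not independent cultures of it.

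The library totals were not used here; size factors worked out from low values that matched whole reads lay between 0.784 and 1.51. The targeted gene Hprt, a purine salvage enzyme, had 541 to 933 normalized reads in the 10 control libraries and 20.8 to 144 in the 10 knockdown libraries, and the lines did not overlap. Of the 12 neuron markers listed, 5 had reads that could be recovered, and their sum ran from 3836 to 15120 normalized reads in the control and from 1924 to 5642 in the knockdown, with no marker at 0. The sum of 9 of 12 skeletal and cardiac muscle markers ran from 274 to 52355 in the control and from 50 to 2009 in the knockdown, where Myod1, Myog, Tnnt2 and Ckm each had at least 1 library at 0. Control sums of these muscle markers were highest on days 3, 6, 12 and 14. The sum of 7 of 12 oligodendrocyte markers ran from 2580 to 7938 in the control and from 7267 to 46525 in the knockdown. In such bulk libraries, fewer cells of a type and less RNA per cell cannot be told apart.

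Promoters are shown for 3 members on which the patterns below turn: Cacna1s, the pore of the skeletal muscle calcium channel, Cacng2, the stargazin subunit with the steepest time course, and Cacna2d3, a neuronal alpha2delta subunit. Each window runs from 250 bases before to 50 bases after the RefSeq start on GRCm38.p6, 5′ to 3′ along the gene. Capitals mark CAGCTG, an E-box read by myogenic and proneural basic helix-loop-helix factors. The word is its own reverse complement, so both strands hold it at the same place.
Cacna1s (chr1:136052561-136052860, plus strand): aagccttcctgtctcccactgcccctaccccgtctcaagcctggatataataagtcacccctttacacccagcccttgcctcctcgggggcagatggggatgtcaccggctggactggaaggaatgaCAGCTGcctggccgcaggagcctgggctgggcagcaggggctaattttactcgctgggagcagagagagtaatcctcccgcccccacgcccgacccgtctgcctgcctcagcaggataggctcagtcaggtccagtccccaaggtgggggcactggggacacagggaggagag
Cacng2 (chr15:78119231-78119530, minus strand): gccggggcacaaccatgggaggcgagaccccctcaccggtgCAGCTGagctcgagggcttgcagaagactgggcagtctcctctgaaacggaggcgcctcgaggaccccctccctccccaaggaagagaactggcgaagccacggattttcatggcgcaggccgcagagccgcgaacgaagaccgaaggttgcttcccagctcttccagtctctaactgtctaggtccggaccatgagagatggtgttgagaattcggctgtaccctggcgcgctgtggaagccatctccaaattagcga
Cacna2d3 (chr14:29721815-29722114, minus strand): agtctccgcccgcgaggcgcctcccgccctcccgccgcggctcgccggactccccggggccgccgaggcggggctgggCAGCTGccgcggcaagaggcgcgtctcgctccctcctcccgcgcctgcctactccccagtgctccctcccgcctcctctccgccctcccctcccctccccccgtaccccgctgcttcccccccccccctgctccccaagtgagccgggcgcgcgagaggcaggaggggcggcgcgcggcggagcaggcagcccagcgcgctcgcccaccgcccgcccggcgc

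The word starts at base 128 of the Cacna1s window, base 42 of the Cacng2 window and base 79 of the Cacna2d3 window. The promoter table held 39 windows for 29 of the members, and 13 of these windows (33.3%), in 12 members, contained CAGCTG. Of all 32851 windows, 16.3% contained it. Each of the windows shown contains the word, whereas most windows of the members do not. A match of letters is a description of the window and not evidence of a bound factor.

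Several members lie side by side, on coordinates of NCBIM37. Scn3a, Scn1a, Scn9a and Scn7a share a stretch of chromosome 2 between 65295175 and 66622971, and Scn10a and Scn11a one of chromosome 9 between 119517584 and 119734574. Cacng7, Cacng8 and Cacng6 follow each other on chromosome 7 from 3333055 to 3435658, and Cacng1, Cacng4 and Cacng5 on chromosome 11 from 107564532 to 107776369. Neighbors did not share one course: Cacng6 and Cacng1 followed the muscle-type pattern described below, whereas Cacng7, Cacng8, Cacng4 and Cacng5 did not. The neuronal sodium channel genes resemble each other in sequence, and their split is uncertain, since the counting of reads that match more than 1 of them is not given in the sources used here.

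Levels are first described per length of exon. For 32 members the whole reads behind the deposited ratios could be recovered, and the level is in normalized reads per kb. The highest median level of the 10 control libraries belonged to Cacng7, a gamma subunit of the AMPA receptor group, at 328 per kb (244 to 503). Cacnb3, a beta subunit of neuronal calcium channels, followed at 213 (177 to 447). These ranges overlapped, so the order of the pair is not beyond their spread. In the knockdown line the same pair led, with medians of 409 and 234 per kb.

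Among the pores the T-type channel gene Cacna1h had a median of 37.9 per kb in the control and 104 in the knockdown, and the P/Q-type gene Cacna1a had 32 and 51.7. Cacna1g, another T-type pore, stood at 23.7 and 31.5, and Cacna1c, an L-type pore of heart and brain, at 22.0 and 31.5. The ranges of these 4 pores overlapped within the control line. Scn3a, the embryonic brain sodium channel, had a median of 17.1 per kb in the control and 21.8 in the knockdown, above Scn1a, an adult brain channel, at 3.23 and 4.08. In the control, the range of Scn3a (12.0 to 54.1) stood wholly above that of Scn1a (2.02 to 11.6).

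At the low end, Cacna1f, the retinal L-type pore, did not exceed 3 reads in any control library or 2 in any knockdown library. Scn11a, a pore of pain-sensing neurons, reached 2 reads in the control and 4 in the knockdown. A value listed as 0 stands for at most 1 normalized read, because the authors entered such values as a log2 of 0.

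**Figure D1:**
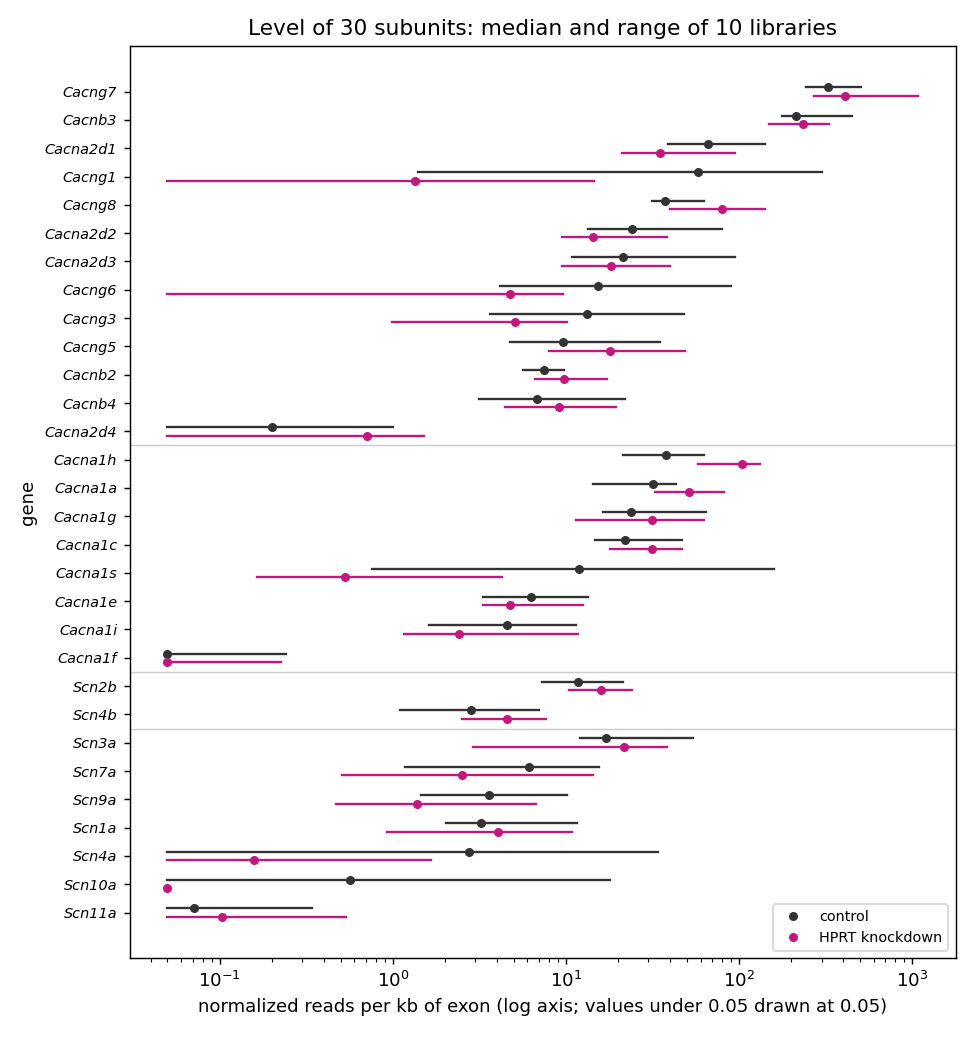
Median (point) and range (line) of normalized reads per kb of exon over the 10 libraries of each line, on a log axis, for 30 of the 32 members with recovered reads, in the order calcium auxiliary, calcium pore, sodium auxiliary and sodium pore from top to bottom. Values under 0.05 are drawn at 0.05; Cacng7 and Cacnb3 lead in both lines, and the muscle-type genes Cacng1 and Cacna1s have wide control ranges.

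The first comparison asked which subunits differed between the lines across the course. The measure is the log2 ratio of the knockdown to the control within the table of a day, over 9 days. Day 6, which the study treated as discrepant, is given apart. By limma with Benjamini-Hochberg adjustment over 13440 genes, 14 of the 30 members differed, against a background of 52.9% of all genes tested. Of these, 11 were higher in the knockdown, against 26.4% of all genes, and 3 were lower, against 26.5%. The median ratio of the members was -0.06, and that of all genes was 0.0062. The share of members called was thus not above that of genes at large.

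The calcium pores differed in both directions. Of 8 tested, 4 were higher (Cacna1h, Cacna1d, Cacna1a and Cacna1c), 1 was lower (Cacna1b), and 3 were not called (Cacna1e at -0.44 ± 1.15, Cacna1g at 0.13 ± 0.92 and Cacna1i at -0.22 ± 1.32). Cacna1a and Cacna1h were the only members of the 30 with a ratio above 0 on all 9 days, where 14.2% of all genes had one, and 0 members had a ratio below 0 on all 9 days, where 15.3% of genes did.

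Cacna1h lies on chromosome 17 from 25511230 to 25570728, and its low-voltage T-type current drives burst firing. Its control libraries held 327, 235, 286, 220 and 209 normalized reads on days 0 to 4, then 461 on day 6 and 416, 578, 615 and 515 over days 8 to 14. Its knockdown libraries held 1303, 1301 and 1301 on days 0, 1 and 2, then 571 and 1022 on days 3 and 4, 577 on day 6 and 1022, 997, 815 and 1109 over days 8 to 14. The knockdown was higher on every day, and the lines overlapped only where its days 3 and 6 met the late control days. The mean ratio was 1.55 ± 0.72 (SD, n = 9 days), with a limma adjusted p of 0.00038. Among the 9 days the ratio was furthest up on day 1, at 2.44, and least on day 12, at 0.40, while day 6 gave 0.30.

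Cacna1d, an L-type pore of neurons and pacemaker cells on chromosome 14 (30853135 to 31304342), had ratios of 2.57, 1.29, 0.45, 1.56 and 1.45 on days 0 to 4. They were 0.75 on day 6 and 1.70, 0.59, 0.45 and -0.06 on days 8 to 14. The knockdown library was higher on 8 of 9 days, with a mean of 1.11 ± 0.82 (limma adjusted p 0.00408). Reads could not be recovered for this gene.

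Cacna1a, the P/Q-type pore that triggers transmitter release, had 164 to 492 normalized reads in the control (median 365) and 373 to 936 in the knockdown (median 591). The ranges overlapped, but within each day the knockdown was higher, by 1.59 on day 1 and 0.21 on day 14, and the mean was 0.87 ± 0.47 (limma adjusted p 0.000985). Cacna1c had 130 to 411 normalized reads in the control and 158 to 415 in the knockdown, and a mean ratio of 0.34 ± 0.37 (limma adjusted p 0.0392).

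Cacna1b, the N-type pore that works beside Cacna1a at nerve terminals, went the other way. Its ratio was 1.08 on day 0 and 0.22 on day 1, stood between -0.82 and -0.97 on days 2, 3, 4 and 8, and reached -1.59, -1.56 and -2.41 on days 10, 12 and 14. The mean was -0.86 ± 1.02 (limma adjusted p 0.0370). Leaving out any 1 of days 2, 3, 4, 8, 10, 12 or 14 ended this call, and over all alternatives its mean ranged from -1.11 to -0.47 with a limma adjusted p of up to 0.294.

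Sodium channel auxiliary subunits that were higher in the knockdown included Scn4b at 0.77 ± 0.75 (limma adjusted p 0.0174) and Scn2b at 0.40 ± 0.42 (0.0305). The beta subunits are cell adhesion proteins as well as channel modulators. Scn4b was low, with 5.41 to 34.7 normalized reads in the control and 12.4 to 38.1 in the knockdown, and each ratio rests on few reads. Scn2b had 33.4 to 98.0 in the control and 47.4 to 110 in the knockdown. In both genes the lines overlapped across days, and within the day the knockdown was higher on 7 of 9.

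Scn3b had a mean ratio of -0.31 ± 1.20 (limma adjusted p 0.490) that changed sign with time, as described with the time courses. Scn2b lost its call when any 1 of days 0, 2, 3, 4, 8 or 12 was left out, with a limma adjusted p of up to 0.111 over its alternatives.

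None of the 6 sodium pores tested differed between the lines by limma, and the median of their estimates was -0.64. At an unadjusted p under 0.05 it was 1 of 6, and the exact sign-flip permutation test called 0. In other alternatives limma called 1 pore, lower in the knockdown: Scn9a with day 6 included or when day 1 or day 4 was left out, and Scn3a when day 0 was left out. Scn9a, a pore of peripheral sensory neurons, stood at -1.13 ± 1.66 (limma adjusted p 0.0781). Scn7a, an atypical sodium-sensing member, had -0.87 ± 1.799 (0.192) and Scn3a -0.41 ± 1.07 (0.299). Scn1a was at -0.11 ± 0.69 (0.690) and Scn8a, the pore of nodes of Ranvier, at -0.01 ± 0.64 (0.955). For each of these named pores the standard deviation over days exceeded the mean.

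Among the 12 calcium auxiliary subunits tested, 4 were higher and 2 lower in the knockdown. The lowest ratio of the 30 members belonged to Cacng2, or stargazin, which carries AMPA receptors to the synapse and lies on chromosome 15 (77822178 to 77950458). Its ratios were 1.28, -0.32, -3.84, -3.49 and -0.88 on days 0 to 4. Day 6 gave -2.44, and days 8, 10, 12 and 14 gave -3.00, -5.36, -6.10 and -6.09. Only day 0 was above 0, and the late days lay furthest down. The mean was -3.09 ± 2.64 (limma adjusted p 0.00801). Reads could not be recovered for Cacng2. Its log2 ratios, summed around loops of 4 tables, missed 0 by up to 0.46, with the loop of days 3 and 4 not counted.

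Cacna2d2, an alpha2delta subunit of cerebellar and other neurons on chromosome 9 (107301943 to 107431677), had 126, 81.5, 109, 117 and 147 normalized reads in the control on days 0 to 4. The control then held 144 on day 6 and 332, 405, 479 and 337 over days 8 to 14. The knockdown held 231, 130, 61.5, 57.0 and 110 on days 0 to 4, then 67.9 on day 6 and 146, 106, 66.4 and 61.7 over days 8 to 14. The knockdown was above the control on days 0 and 1 and below it on all later days. The mean ratio was -1.01 ± 1.28 (limma adjusted p 0.0464), a call that ended when any 1 of days 2, 3, 4, 8, 10, 12 or 14 was left out and reached a limma adjusted p of up to 0.356 over its alternatives.

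The auxiliary subunits that were higher in the knockdown were of the gamma and beta kinds. Cacng8, a gamma subunit that slows AMPA receptor closing, had 20.7 to 41.7 normalized reads in the control and 26.5 to 94.3 in the knockdown, with a mean ratio of 0.96 ± 0.84 (limma adjusted p 0.0096). Cacng5 had a mean of 0.98 ± 1.07 (0.0272), Cacng7 of 0.52 ± 0.58 (0.0321) and Cacnb2, the main beta subunit of heart, of 0.47 ± 0.54 (0.0359). The rest were not called, namely Cacnb4 at 0.46 ± 0.76, Cacng4 at 0.33 ± 0.52, Cacnb3 at -0.19 ± 0.46, Cacna2d3 at -0.54 ± 1.68, Cacnb1 at -0.60 ± 1.06 and Cacna2d1 at -0.72 ± 1.15. Omitting 1 day ended the call of Cacng5 (day 2, 3, 8, 10 or 14), of Cacng7 (day 3, 4, 10, 12 or 14), of Cacnb2 (day 1, 2, 4 or 8) and of Cacna1c (day 0, 1, 3, 4 or 12). Over their alternatives the limma adjusted p reached 0.212, 0.251, 0.0934 and 0.295, respectively.

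The muscle marker levels moved with the days of the control line, and their part in these differences was not tested. Leaving out days 3, 6, 12 and 14, on which those sums were highest, left 7 of 30 members called, all higher in the knockdown, against 38.5% of all genes. Cacng2 was then at -2.02 with a limma adjusted p of 0.0972. The calls of Cacna1a, Cacna1d, Cacna1h, Cacng8 and Scn4b held in this and every other alternative in which these genes were tested. Cacna1d, Cacng8 and Scn4b were not tested with the filter raised to a typical log2 count of 8. Scn4b was low for the main filter as well, with a median of 13.9 normalized reads in the control and 22.7 in the knockdown.

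**Figure D2:**
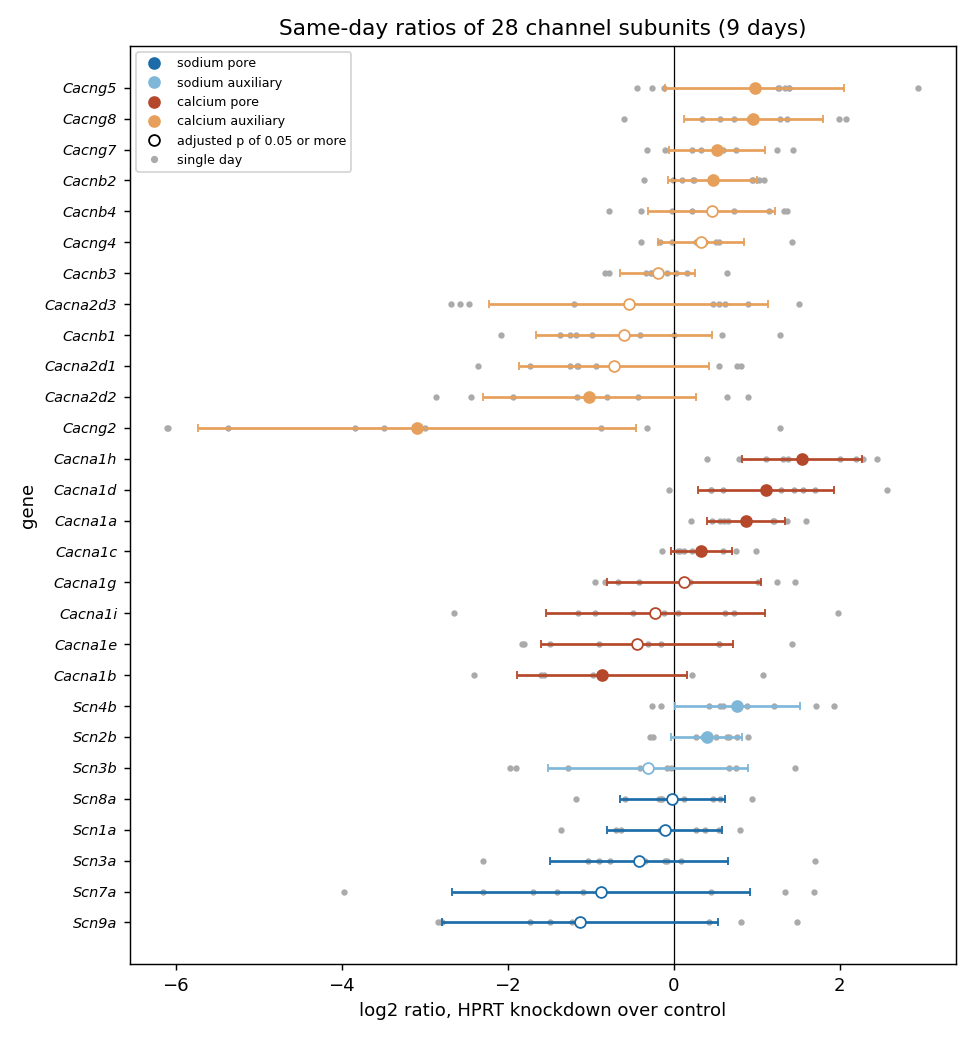
Same-day log2 ratio of the HPRT knockdown over the control for 28 of the 30 members that passed the filter. Gray points are the 9 single days, larger points the mean and bars the standard deviation; filled points have a limma adjusted p under 0.05. Cacna1h and Cacna1a lie right of 0 on all 9 days, and Cacng2 reaches furthest left, with a mean of -3.09.

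The second comparison asked how the subunits changed with time in the control line, whose consecutive-day tables were joined into 1 course and fitted with a slope per day over 9 days. Of the 30 members, 22 had a called slope by limma, against 43.4% of all genes. A rise was called for 21, against 19.6% of all genes, and a fall for Cacng5 only, against 23.8%. Each of the 8 calcium pores tested rose, as did 9 of 12 calcium auxiliary, 2 of 4 sodium auxiliary and 2 of 6 sodium pore subunits. The median slope of the members was 0.11 log2 units per day, and that of all genes was -0.0028.

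The steepest rise belonged to Cacng2, at 0.27 ± 0.02 per day (SE, limma adjusted p 0.000285). Its log2 control value relative to day 0 was 0.09, 0.78, 1.20 and 0.41 on days 1 to 4, 1.10 on day 6 and 2.40, 2.86, 3.61 and 3.38 over days 8 to 14. Scn3b, a beta subunit of developing neurons on chromosome 9 (40076801 to 40099203), rose by 0.24 ± 0.02 per day (limma adjusted p 0.000168). Its log2 value relative to day 0 lay between -0.30 and 0.19 on days 1 to 4, then reached 0.65, 1.52, 2.05, 2.60 and 2.81 on days 6, 8, 10, 12 and 14. Both genes were higher on days 8 to 14 than on any earlier day.

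Cacna2d3 (chromosome 14, 29718133 to 30535050) had 80.1, 42.9, 51.9, 40.4 and 61.9 normalized reads in the control on days 0 to 4, 77.5 on day 6 and 221, 319, 351 and 277 over days 8 to 14. The last 4 days sampled were thus all above the first 6. Its slope was 0.24 ± 0.04 per day. Cacnb4, a beta subunit of cerebellar neurons on chromosome 2 (52283845 to 52532350), held 34.6, 57.9, 34.2, 43.3 and 28.0 normalized reads on days 0 to 4. It then had 75.3 on day 6 and 63.9, 163, 197 and 179 over days 8 to 14, a slope of 0.22 ± 0.03.

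Scn3a (chromosome 2, 65295175 to 65405684) had 150 to 206 normalized reads in the control on days 0 to 4, 225 on day 6 and 422, 680, 665 and 582 over days 8 to 14, with a slope of 0.18 ± 0.02 (limma adjusted p 0.000526). Scn1a rose by 0.17 ± 0.02, from 30.3 normalized reads on day 0 to 128 on day 14. The T-type pore Cacna1i, at 0.15 ± 0.04, and the R-type pore Cacna1e, at 0.15 ± 0.02, had the steepest slopes among the calcium pores. Cacng5 fell by 0.14 ± 0.04 per day (limma adjusted p 0.0246), with 45.5 normalized reads on day 0, 134 on day 1 and 18.2 to 26.8 on days 8 to 14, a call that ended when day 2 or day 12 was left out. The summed neuron markers stood at 3836 to 6149 in the control on days 0 to 6 and at 10348 to 15120 on days 8 to 14. The summed fibroblast markers, over 5 genes, stood at 843 to 2849 and at 3555 to 10450 on the same days. The part of either in the rise of the subunits was not tested.

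Members without a called slope in the control included Cacna2d1, Cacnb2, Scn4b, Scn7a, Scn8a and Scn9a. Leaving out the days high in muscle markers left 12 of 30 members called, all rising, against 8.79% of all genes, and among them was Scn9a, which was not called with all 9 days. Scn1a, Cacnb4, Cacna1a, Cacna1d, Cacna1g, Cacna1h, Cacna1i, Cacng4, Cacng5, Cacng7 and Scn2b were then no longer called. On a scale of log2(day + 1), the calls of Cacna1d, Cacna1g, Cacna1h, Cacna1i, Cacng7 and Scn2b ended. Omitting 1 day ended the call of Cacna1d (day 10, 12 or 14), of Cacna1i, Cacng7 and Cacng8 (day 12) and of Scn2b (day 14).

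In the knockdown line 3 of the 30 members had a called slope by limma, against 12.8% of all genes. Cacng7 rose by 0.14 ± 0.02 per day (limma adjusted p 0.00568) and Cacna1c by 0.07 ± 0.02 (0.0380), with rises called for 7.34% of all genes and falls, the direction of 1 member, for 5.42%. The call of Cacna1c ended when any 1 of days 2, 3, 4, 8, 10, 12 or 14 was left out, and those of both genes ended on a scale of log2(day + 1), with a limma adjusted p of up to 0.483 for Cacna1c and 0.227 for Cacng7 over their alternatives. Cacng7 had 765, 601, 657, 811 and 821 normalized reads on days 0 to 4, 987 on day 6 and 1148, 2227, 1891 and 2379 over days 8 to 14. The last 3 days stood apart from the first 7.

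Over all pores and auxiliary subunits the median slope in the knockdown was 0.02 log2 units per day, with 16 estimates above 0 and 14 below. Day 0 was a high point for several neuronal members of this line. Scn3a had 483, 153, 36.4, 101 and 186 normalized reads on days 0 to 4, 181 on day 6 and 396, 363, 393 and 454 over days 8 to 14. Cacna1e had 160, 62.5, 42.7, 42.4 and 100 on days 0 to 4, 83.2 on day 6 and 98.6, 47.7, 49 and 58.3 over days 8 to 14. In Scn3a the lowest value fell on day 2 and in Cacna1e on day 3.

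**Figure D3:**
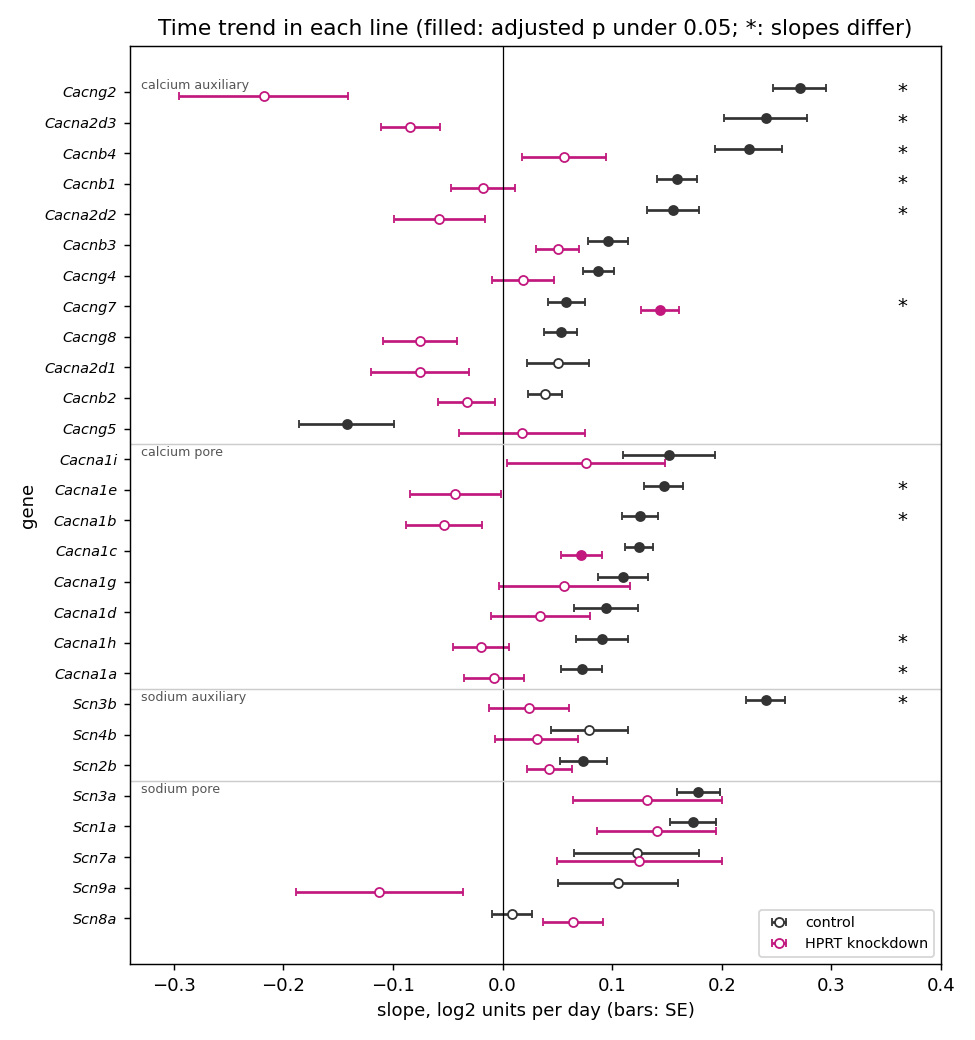
Slope on day of the joined log2 level in each line (points, with bars for the standard error) for 28 of the 30 members that passed the filter, grouped by kind of subunit. Filled points have a limma adjusted p under 0.05 and a star marks the 11 members whose 2 slopes differed; all 8 calcium pores have filled control points, and 1 has a filled knockdown point.

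The difference in trend was tested directly as the slope on day of the same-day ratio. By limma, 11 of the 30 members were called, against 14.0% of all genes. For 10 of them the knockdown fell relative to the control, against 6.70% of all genes, and for Cacng7 it rose, against 7.35%. Of all 30 estimates, 26 were below 0. This test and the slopes within lines share their libraries and are not independent of each other.

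Calcium auxiliary subunits made up 5 of the 10 members that fell relative to the control. Cacng2 had a slope of -0.43 ± 0.09 per day (SE, limma adjusted p 0.0190), and Cacna2d3 one of -0.31 ± 0.03 (0.00261). For Cacna2d3, the knockdown held 148, 124, 75.1, 55.7 and 95.5 normalized reads on days 0 to 4, 34.9 on day 6 and 94.8, 49.6, 59.1 and 50.0 over days 8 to 14. Set against the control values above, the knockdown was higher on days 0 to 4 and lower from day 6 on. Its ratio went from 0.90 and 1.51 on days 0 and 1 to -2.68, -2.58 and -2.46 on days 10, 12 and 14.

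Cacna2d2 had a slope of -0.23 ± 0.03 (limma adjusted p 0.00732), on the reads given above. Cacnb1, the beta subunit shared by skeletal muscle and neurons, had -0.18 ± 0.04 (0.0205); its ratios were 1.29, 0.59, -0.41, -1.25 and 0.01 on days 0 to 4, -2.21 on day 6 and -0.98, -1.17, -1.37 and -2.08 over days 8 to 14. Cacnb4 had a slope of -0.14 ± 0.02 (0.00959). Its knockdown libraries held 88.4, 148, 75.3, 71.5 and 39.6 normalized reads on days 0 to 4, 56.5 on day 6 and 73.6, 124, 116 and 175 over days 8 to 14, so that the knockdown was higher on days 0 to 4. Its own slope, 0.06 per day, was not called (limma adjusted p 0.337).

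Of the calcium pores, Cacna1e had -0.19 ± 0.04 per day (limma adjusted p 0.0265), Cacna1b -0.17 ± 0.03 (0.0166), Cacna1h -0.12 ± 0.03 (0.0251) and Cacna1a -0.08 ± 0.02 (0.0248). All 8 estimates of this group were below 0. Cacna1e had 60.1, 42.0, 53.2, 79.5 and 68.1 normalized reads in the control on days 0 to 4, 81.2 on day 6 and 111, 170, 170 and 165 over days 8 to 14, so that control days 10, 12 and 14 were above every knockdown library. Cacna1h and Cacna1a kept higher values in the knockdown, but by less at the end: their mean ratios over days 0 to 4 were 2.06 and 1.18, and over days 8 to 14 they were 0.90 and 0.48.

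Scn3b was the one sodium channel member called, at -0.21 ± 0.03 per day (limma adjusted p 0.00906). Its ratios were 1.46, 0.66, -0.03, -0.41 and 0.75 on days 0 to 4, -0.43 on day 6 and -0.08, -1.27, -1.90 and -1.97 over days 8 to 14. Scn3a and Scn1a, which rose in the control, had ratio slopes of -0.04 ± 0.07 (0.711) and -0.02 ± 0.05 (0.802), and a difference in trend was not detectable for either. Cacng7 had a slope of 0.09 ± 0.02 (0.0423), a call that ended when any 1 of days 1, 2, 4, 10, 12 or 14 was left out.

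These calls depended on the days used. Without the days high in muscle markers, 2 of 30 members were called, against 1.11% of all genes; these were Cacna2d3 and Cacnb4, which were called under every alternative. The slopes of the 9 that lost their calls stayed close in size or grew, with Scn3b at -0.20 and Cacna2d2 at -0.24 on the 6 days left. Leaving out day 12 or day 14 left 5 members each. The single-day omissions that ended a call were of days 1, 10, 12 and 14 for Cacna1a, days 0, 1, 10, 12 and 14 for Cacna1e, days 1, 10 and 12 for Cacna1h, days 12 and 14 for Cacnb1 and Cacng2, and day 14 for Cacna1b.

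**Figure D4:**
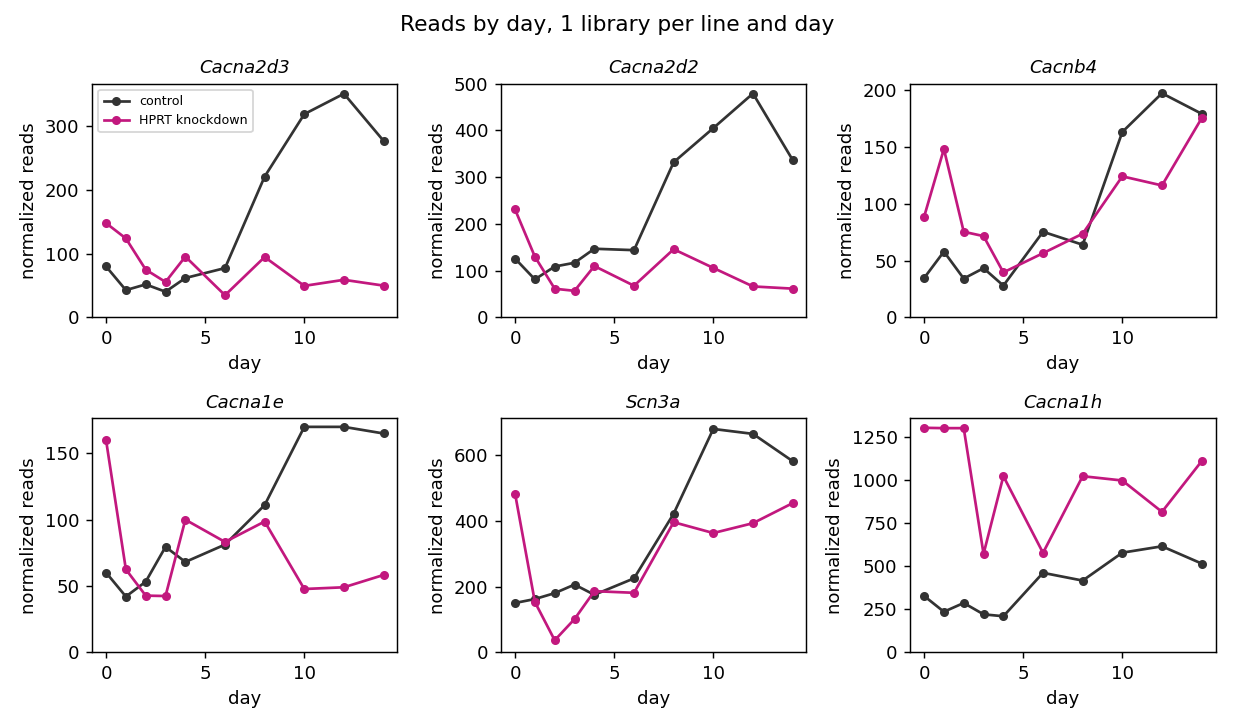
Normalized reads by day in the control and the HPRT knockdown line, 1 library per point, for 6 members with recovered reads. Cacna2d3, Cacna2d2 and Cacna1e end higher in the control (277, 337 and 165 normalized reads on day 14) than in the knockdown (50.0, 61.7 and 58.3), while Cacna1h is higher in the knockdown on every day.

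Under the filter were the muscle-type subunits Cacna1s, Scn4a, Cacng1 and Cacng6, and Scn10a, which is not of muscle type. Each of these was highest in the control on day 6 or day 14. Fitted without the filter, where 40.5% of 19041 genes were called, limma gave mean ratios of -3.54 for Cacna1s (adjusted p 0.0121), -3.78 for Cacng1 (0.0243), -2.20 for Cacng6 (0.0196), -1.44 for Scn10a (0.0418) and -2.91 for Scn4a (0.0676), which was not called. These ratios rest in part on knockdown values at or near the floor of 1 normalized read. Cacna1s had 7.58, 52.3, 103, 260 and 5.01 normalized reads on days 0 to 4, 1047 on day 6 and 46.5, 9.65, 183 and 471 over days 8 to 14 in the control, and 1.08 to 28.0 in the knockdown. Scn4a, the skeletal muscle sodium pore, had 1.08 on day 0, 10.3, 20.7 and 51.0 on days 1 to 3, and 100, 18.2, 75.0 and 241 on days 6, 8, 12 and 14, with days 4 and 10 at 0. Its knockdown libraries held 11.7 on day 0 and at most 2.51 afterward. On days 1, 2, 3, 6, 8, 12 and 14 the control was above the knockdown.

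Cacng1, the gamma subunit of the skeletal muscle channel, had 6.50, 49.5, 105, 169 and 6.01 normalized reads in the control on days 0 to 4, 377 on day 6 and 18.9, 1.75, 95.2 and 362 over days 8 to 14. In the knockdown it had 18.3 on day 0 and at most 5.39 on any later day. Cacng6, also known from skeletal muscle, had 62.4 on day 6 and 70.4 on day 14 and at most 24 on any other control day, against at most 7.56 in the knockdown. Scn10a, a sensory neuron pore, reached 114 normalized reads in the control on day 6 and at most 11.7 on other days, and was at 0 in all 10 knockdown libraries.

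As for Cacna1s, Scn4a, Cacng1 and Cacng6, the summed muscle markers were higher on days 3, 6, 12 and 14 than on days 4 and 10 in the control, with 13025, 36976, 9561 and 52355 normalized reads on the former and 435 and 274 on the latter. In the knockdown their sum was 2009 on day 0 and 50 to 303 on other days. The same order of days also held in the control for other members, among them Scn10a, Scn7a, Scn4b and Cacna2d1. Scn7a had 57.2, 114, 63.3 and 80.8 normalized reads on days 3, 6, 12 and 14, against 14 and 32.4 on days 4 and 10. For Cacna2d1 they were 672, 1185, 589 and 1143, against 326 and 542. Cardiac and skeletal muscle markers were listed together, and their part in the levels of any of these subunits was not tested. Of the remaining members under the filter, Cacng3, an AMPA receptor partner of neurons, had 5.58 to 73.1 normalized reads in the control, highest on day 14, and 1.51 to 15.3 in the knockdown. Cacna2d4, known from retina, had at most 5.88 normalized reads in the control and 8.78 in the knockdown.

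**Figure D5:**
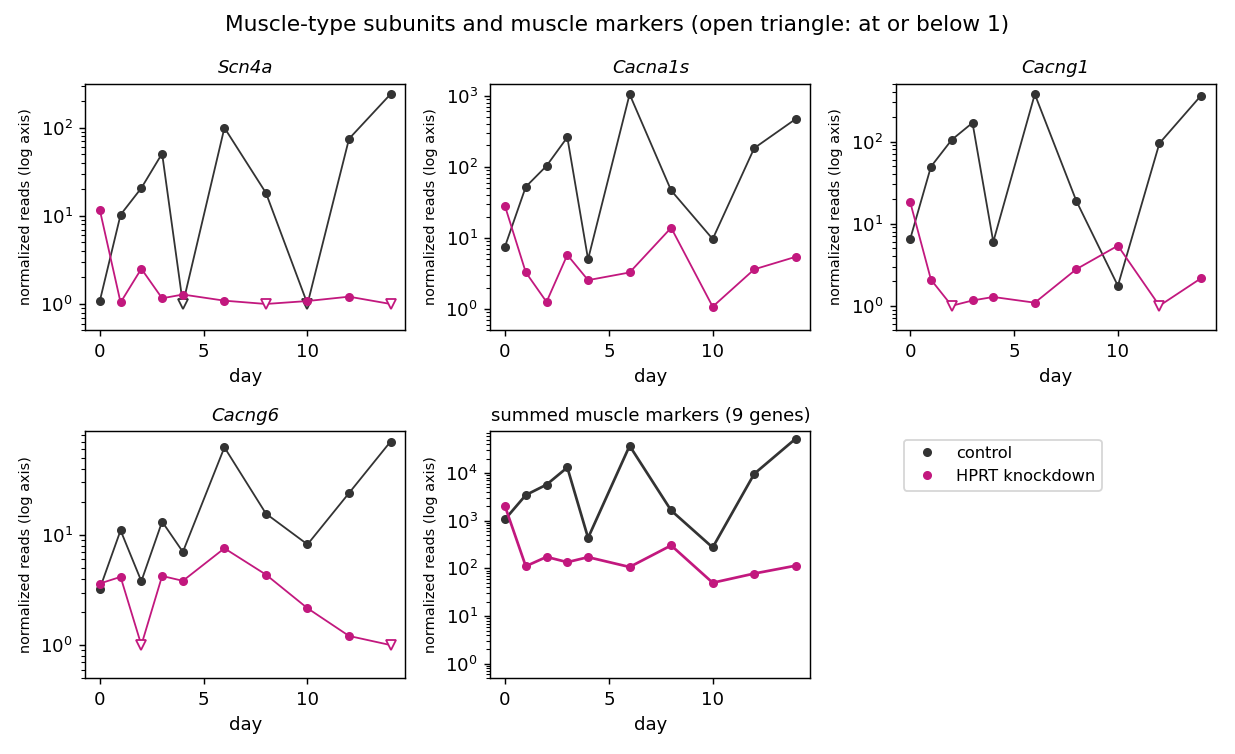
Normalized reads by day on log axes for 4 muscle-type members and for the sum of 9 muscle markers, 1 library per line and day. Open triangles mark libraries at or below 1 normalized read; in the control all 5 panels are higher on days 3, 6, 12 and 14 than on days 4 and 10, and the knockdown stays below the control on those 4 days.

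Steps between consecutive days have 1 library on each side and no test. At least 2-fold steps made up 41 of the 270 member steps of the control line (15.2%), where 6.14% of all gene steps were as large, and 63 of 270 in the knockdown line (23.3%), where 9.94% were. With the filter raised to a typical log2 count of 8, the control share was 4 of 99 member steps (4.04%), against 2.68% of gene steps. In the knockdown it was then 16 of 99 (16.2%), against 4.79%. In the control, 9 members rose into day 6, among them Cacna1h, Cacna1i, Cacna2d1, Cacnb1, Cacnb4, Scn4b and Scn7a, where 1305 of 13440 genes rose as much. From day 6 to day 8, 6 members and 896 genes fell, and 4 members (Cacna2d2, Cacna2d3, Cacng2 and Scn9a) and 731 genes rose. In the knockdown, 7 members fell from day 0 to day 1, among them the T-type pores Cacna1g and Cacna1i and the neuronal Scn3a and Scn3b, and 5 rose, among them Cacna1a, where 1346 of 13440 genes fell and 813 rose. From day 6 to day 8, 9 members of the knockdown rose and 0 fell, where 792 genes rose and 646 fell.

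Day 6 itself, set apart from the tests, gave ratios below 0 for Cacnb1 (-2.21), Scn9a (-2.22), Cacna2d1 (-1.89) and Cacna1i (-1.77), and near 0 for Cacna1a (0.15), Cacnb2 (0.02), Cacna1g (0.02) and Cacng8 (0.05). Cacna2d1, the alpha2delta subunit of muscle and neurons, had 1185 normalized reads in the control on that day and 327 in the knockdown.

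Proteins that work with the channels were examined from a list each. Of 13 partners of sodium channels, 12 passed the filter, and 5 were higher and 2 lower in the knockdown by limma, against the 26.4% and 26.5% of genes given above. The higher ones were Fgf11, an intracellular factor that binds sodium pores (mean ratio 1.16), Nrcam, an adhesion protein of the axon initial segment (0.93), and Nalcn, Unc79 and Unc80, the pore and accessory proteins of the sodium leak channel (1.04, 0.94 and 1.05). The lower ones were Ank3, the ankyrin that anchors sodium channels at the initial segment (-1.03, limma adjusted p 0.00039), and Fgf13 (-1.05, 0.00409). Ank3 rose in the control by 0.25 per day and in the knockdown by 0.11, with both slopes called. The slope of its same-day ratio was -0.02 (limma adjusted p 0.737) and was not called. For this gene the slopes joined from consecutive days and the slope of the same-day ratio do not match. Its reads could not be recovered either, so whether the trend of Ank3 differed between the lines cannot be told.

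Of 18 partners of calcium channels, 16 passed the filter. Of these, 3 were higher and 6 lower in the knockdown, against 26.4% and 26.5% of all genes. The lower ones included Rem2, a small GTPase that inhibits calcium channels (-1.73, limma adjusted p 0.000553), Stac2 (-1.44) and Stac3 (-1.70), adaptors of L-type channels, and Cabp1, a calcium sensor (-0.86). Rims2, a release site scaffold, was at -0.48 and the calmodulin gene Calm2 at -0.38. The higher ones included Gem (0.50), another inhibitory GTPase, and the calcineurin gene Ppp3ca (0.52). Of 8 regulators of neuronal channel genes, all of which passed the filter, 3 were lower, against 26.5% of all genes. They were Rest, the repressor that silences neuronal genes outside neurons (-0.61, limma adjusted p 0.0067), its corepressor Rcor2 (-1.10, 0.00025) and the deacetylase Hdac2 (-0.31, 0.0162).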

How the data were processed

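RNA-seq libraries of 20 samples, 10 per line, were grouped by their labels. Per the study's methods an Illumina HiSeq sequencer was used, and reads were aligned by ELAND to NCBI37/mm9 within CASAVA (version 1.8.2, per the submitters' processing notes) and counted per gene in Avadis NGS, partial reads included, with DESeq normalization by the authors. The libraries were indexed and shared 4 lanes of a flow cell; which lane held each is not given in the sources used here. The authors deposited 28 tables of log2 values, each holding 2 libraries as deviations from their mean, so that tables give log2 ratios without levels. Each table had been normalized by itself, with any value of 1 normalized count or less set to a log2 of 0, which understates ratios of low genes. Every column of values was used (0 left out). Read strand was not used. Ratios between days were joined along the consecutive-day tables.

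The filter on level was read from the rounding step of the deposited numbers, since the log2 deviations hold no level; the design had foreseen a filter in an expression unit. For 32 members the whole reads (49 bases counted as 1 read) that reproduce at least 26 of 27 tables were recovered, and normalized reads are these divided by the size factor of the library; recovery failed for Cacna1b, Cacna1d, Cacnb1, Cacng2, Cacng4, Scn3b and Scn8a. Around 8 of 9 loops of 4 tables, 91.1% to 92.6% of 14681 genes summed to 0 within 2e-05; around the loop of days 3 and 4 it was 0.0409%, for a cause that was not tested. Exon lengths came from NCBIM37 gene models.

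Same-day ratios, slopes and ratio slopes were tested with limma 3.58.1 (lmFit and eBayes) in R 4.3.3 over 9 days, Benjamini-Hochberg adjusted over 13440 genes at 0.05; the code was tested on simulated data. Libraries of a day were paired because both lines were collected on it: deviations of the paired libraries from their line means correlated at 0.133 to 0.43 over genes on 8 days and at -0.0192 on day 0. P-values measure the spread between days of 1 line each. Daily values are given for called members with a mean ratio of at least 1 and for the 8 members with the steepest called slopes; muscle-type members and Cacng7 were added after their values were seen. The values of some single genes are not reported here. The members and lists were chosen with earlier results of these data known. Filters, single days, time scales, recentring, recovered reads and unpaired fits were the alternatives.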

Additional observations from a re-analysis of the deposited data

Results flagged for a closer look

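The slope of the same-day ratio on day, which is the difference in time course between the lines, passed the limma threshold for 11 members and is listed for that reason. Below 0 were Cacng2 at -0.43 per day (limma adjusted p 0.0190), Cacna2d3 at -0.31 (0.00261), Cacna2d2 at -0.23 (0.00732), Scn3b at -0.21 (0.00906), Cacna1e at -0.19 (0.0265), Cacnb1 at -0.18 (0.0205), Cacna1b at -0.17 (0.0166), Cacnb4 at -0.14 (0.00959), Cacna1h at -0.12 (0.0251) and Cacna1a at -0.0794 (0.0248). Above 0 was Cacng7 at 0.0895 (0.0423). Without the control days high in muscle markers, an alternative chosen after seeing the data, Cacna2d3 and Cacnb4 were the members still called.

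One day stood apart from the other days of its gene by Dixon's criterion. The ratio of Cacng4, an AMPA receptor partner of developing brain, was 1.43 on day 0, against a median of 0.38 over the 10 days; the gap to the next value was 0.481 of the whole range. Chance flags about 1 in 20 such groups.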

How the results depend on the processing

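No mean ratio or slope called in the main fits changed sign under any alternative run. Small mean ratios that were not called, such as that of Scn8a, did change sign in some alternatives. Knockdown steps were 32 up and 31 down at 2-fold, but 59 up and 70 down at 1.5-fold. The count of members differing between the lines, 14 of 30, became 4 of 11 when the filter was raised to a typical log2 count of 8, 16 of 39 with no filter on level (10 higher and 6 lower, against 11 and 3), 8 with the exact sign-flip permutation test and 8 to 15 when 1 day was left out. It became 7 without the 4 control days highest in muscle markers, an alternative chosen after seeing the data. Without the pairing of libraries (no replicate block) it was 9, with 6 higher and 3 lower, and the members that lost their calls included Cacna1c, Cacng5, Cacng7 and Scn2b. The 22 control slopes became 9 of 11 at the higher level, 17 to 24 with 1 day left out and 12 without the muscle marker days. The 3 knockdown slopes became 1 to 4 with 1 day left out, 0 on a scale of log2(day + 1) (5 at an unadjusted p under 0.05) and 0 without the muscle marker days (2 at an unadjusted p under 0.05). The 11 ratio slopes became 4 of 11 at the higher level, 5 to 14 with 1 day left out and 2 without the muscle marker days. Steps of at least 2-fold, 104 of 540, became 215 at 1.5-fold and 20 of 198 at the higher level. Some of these alternatives tested fewer genes or used fewer days, and the cause of the changes in count was not tested. Recentring and the day 3 to 4 step taken through the knockdown tables left every member's call as it was, and so did recovered reads for the 23 tested members that had them. Ratios of low members such as Scn4b and Cacng8 rest on few reads, which limits their precision.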

Other observations

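Scn2a1, the neuronal sodium pore left out by the naming rule, lies between Scn3a and Scn1a on chromosome 2 (65458914 to 65605504). It rose in the control by 0.23 ± 0.02 log2 units per day (SE, limma adjusted p 0.000181) and had a knockdown slope of -0.0037 ± 0.03 (0.946). Its ratio of the knockdown to the control was 1.75 on day 0, 1.40 on day 1, between -0.25 and 0.03 on days 2 to 4, -0.83 on day 6, and -0.77, -1.42, -1.88 and -1.58 on days 8, 10, 12 and 14. The slope of the ratio was -0.23 ± 0.03 (limma adjusted p 0.00766), and the mean ratio of -0.31 ± 1.27 (SD, n = 9 days) was not called (0.518). It was above the control on the first days and below it on the last.

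Of 10 sensory neuron markers, 8 passed the filter. By limma 2 were higher and 1 lower in the knockdown, against 26.4% and 26.5% of all genes. Ntrk2 and Ntrk3, receptors of neurotrophins, had mean ratios of 1.13 (limma adjusted p 0.00356) and 0.76 (0.000623), and Pou4f1, a transcription factor of sensory neurons, had -1.61 (0.0046). Of 8 fibroblast markers, 2 were lower by limma, against 26.5% of all genes. The fibroblast marker sum over 5 genes ran from 843 to 10450 normalized reads in the control and from 1144 to 4677 in the knockdown. All 8 pluripotency markers were lower, against 26.5% of all genes, with a median ratio of -2.71. Of 8 astrocyte markers, 7 were higher, against 26.4% of all genes, with a median of 1.27.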
